A study of Mus musculus with 6 samples.

Results

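The mevalonate pathway genes described here are Acat2, Hmgcs1, Mvk, Pmvk, Mvd, Idi1, Fdps, Ggps1 and Fdft1, which encode enzymes of the route from acetyl-CoA to squalene. They were taken by symbol, and all 9 were found once each among the 55450 genes of the count table. Their transcripts were compared between LKB1 knockout (KO) and wild-type (WT) mouse liver. The labels give KO mice as LKB1 fl/fl and the strain of all animals as C57BL/J. At 6 weeks of age 3 LKB1 fl/fl and 3 WT mice were injected with AAV8 Cre, an adeno-associated virus that carries the Cre recombinase, so the controls had the virus and Cre as well. The left lobe was taken 4 weeks later, at 10 weeks of age. The promoter that drives Cre and the share of cells it reached are not given in the sources used here, and whole lobe tissue was sequenced, so cells other than hepatocytes are in every library.

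LKB1 is a kinase that activates AMPK and related kinases, and Stk11 encodes it. In the mevalonate pathway acetyl-CoA units are joined to HMG-CoA, which is reduced to mevalonate. Mevalonate is phosphorylated and decarboxylated to isopentenyl diphosphate, the building block of all isoprenoids. These blocks are linked to farnesyl diphosphate, from which the sterol branch goes on through squalene to cholesterol, while other branches give geranylgeranyl groups for proteins, ubiquinone and dolichol. The liver is a main site of the pathway, and most of its genes are known targets of the transcription factor SREBP-2, which is released when membrane sterols are low. The reduction of HMG-CoA to mevalonate is not analysed here.

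Total counts per library were between 47659122 and 56147667. Stk11, the gene that was deleted, had 22.1, 14.4 and 11.4 CPM (counts scaled to a common library size) in KO 1, 2 and 3 and 66.1, 64.2 and 69.7 CPM in WT 1, 2 and 3. Stk11 fell by 2.06 ± 0.247 (SE) on the log2 scale (edgeR, adjusted p = 0.0167). The call was lost, with adjusted p-values above 0.05, when the fit was made without KO 2 (0.0636), KO 3 (0.0607), WT 2 (0.102) or WT 3 (0.104). KO 1 and WT 1 had 42472 and 29243 counts of Xist and at most 6 counts over 4 Y-linked genes, whereas the other 4 libraries had at least 6146 Y-linked counts and at most 16 of Xist. The labels do not give this difference, so results are also given within the 4 libraries with Y-linked counts. Hepatocyte markers were abundant in every library (summed CPM of 5 genes from 19854 to 63374 in KO and from 72106 to 112747 in WT). Of these, Alb, Apoa1 and Ttr were lower and Cps1 and Hnf4a higher in every KO library than in every WT library. Over all genes tested 15.5% were lower and 16.9% higher in this way. The test called 0 of the 5, against 3.37% of all genes.

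Of the 9 mevalonate genes, 8 were lower in all 3 KO libraries than in all 3 WT libraries. Their mean levels in KO were between 0.233 (Mvd) and 0.708 (Acat2) of the WT mean. The exception was Ggps1, which makes geranylgeranyl diphosphate and had a ratio of 1.15 with overlapping groups. The median log2 fold change of the 9 genes was -1.25, and that of all 14539 genes tested was 0.01. Hmgcs1, Mvk, Mvd and Idi1 fell with adjusted p-values under 0.05, the threshold used throughout for the quasi-likelihood test of edgeR.

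The test called 4 of 9 pathway genes as lower, where 1.22% of all genes tested were called as lower. It called 0 of 9 as higher, where 2.15% of all genes were, and in either direction the shares were 4 of 9 and 3.37%. A complete separation with KO below WT, as in 8 of the 9, was seen for 15.5% of all genes tested. All 8 also had an unadjusted p-value under 0.05 with a negative change, against 11.7% of all genes. The number of calls depended on the libraries. Leaving out KO 1 gave 7 calls, all lower, in a fit that called 14.2% of all genes as lower. Leaving out any other single library, KO 2, KO 3, WT 1, WT 2 or WT 3, gave 0. Over all genes those fits called 14 of 14885, 4 of 15004, 110 of 14935, 1 of 14980 and 3 of 15027 as lower. Within the 4 libraries with Y-linked counts 7 of the 9 were called as lower, against 16.1% of all genes. With the Xist state as a term in the fit 7 were also called as lower, against 4.99% of all genes. In each of these 3 fits the genes not called were Acat2 and Ggps1. The replicates of a group were separate mice.

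**Figure D1:**
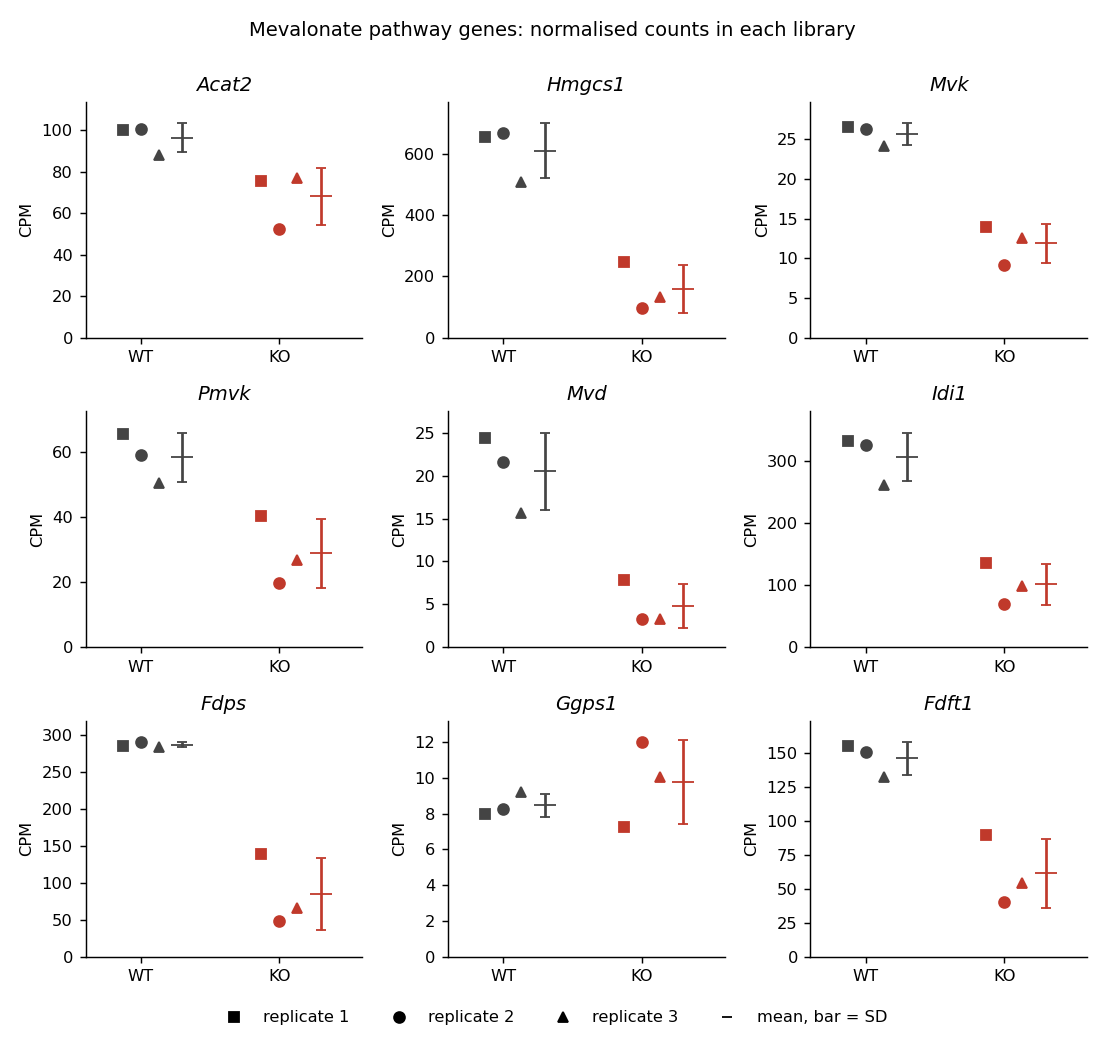
Normalised counts (CPM, linear axis from 0) of the 9 mevalonate pathway genes in each WT (grey) and KO (red) library, with symbols for replicates and the mean ± SD beside them. For 8 genes every KO point lies below every WT point, and for Ggps1 the groups overlap.

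The promoters of the 4 genes called as lower, and of Ggps1, the only gene whose mean was not lower in KO, are shown. Those of Acat2 and Pmvk, which were lower but not called, were searched and are not printed. RefSeq promoter sequences (GRCm38.p6, 250 bases before to 50 bases after the annotated start) were matched by symbol for 7 of the 9 genes. Capitals mark matches on either strand to the CCAAT box (CCAAT, or ATTGG on the other strand), the GC box (GGGCGG or CCGCCC) and a core of the sterol regulatory element (TCACNCCAC), the site to which SREBP proteins bind. Each sequence reads along its gene. Hmgcs1 is at chr13:119690101-119690400 on the plus strand, Mvk at chr5:114444019-114444318 on the plus strand, Mvd at chr8:122443373-122443672 on the minus strand, Idi1 at chr13:8885356-8885655 on the plus strand and Ggps1 at chr13:14063439-14063738 on the minus strand.
Hmgcs1: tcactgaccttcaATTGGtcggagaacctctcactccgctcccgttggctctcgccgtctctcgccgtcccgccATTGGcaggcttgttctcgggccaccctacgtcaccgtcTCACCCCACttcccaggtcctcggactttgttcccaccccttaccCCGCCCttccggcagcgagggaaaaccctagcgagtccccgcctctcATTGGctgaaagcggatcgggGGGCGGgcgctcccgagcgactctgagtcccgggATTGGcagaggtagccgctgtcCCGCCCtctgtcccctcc
Mvk: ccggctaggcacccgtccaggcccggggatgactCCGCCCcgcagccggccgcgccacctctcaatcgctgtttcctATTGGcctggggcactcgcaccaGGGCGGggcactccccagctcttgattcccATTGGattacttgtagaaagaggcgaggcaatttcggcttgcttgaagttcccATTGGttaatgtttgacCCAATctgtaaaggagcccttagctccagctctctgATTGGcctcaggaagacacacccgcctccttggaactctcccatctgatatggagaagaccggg
Mvd: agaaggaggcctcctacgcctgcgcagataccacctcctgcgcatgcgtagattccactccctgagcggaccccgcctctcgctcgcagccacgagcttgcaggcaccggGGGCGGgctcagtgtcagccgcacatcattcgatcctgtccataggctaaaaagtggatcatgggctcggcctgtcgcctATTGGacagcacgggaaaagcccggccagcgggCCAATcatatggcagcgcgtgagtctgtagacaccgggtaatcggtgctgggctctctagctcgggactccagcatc
Idi1: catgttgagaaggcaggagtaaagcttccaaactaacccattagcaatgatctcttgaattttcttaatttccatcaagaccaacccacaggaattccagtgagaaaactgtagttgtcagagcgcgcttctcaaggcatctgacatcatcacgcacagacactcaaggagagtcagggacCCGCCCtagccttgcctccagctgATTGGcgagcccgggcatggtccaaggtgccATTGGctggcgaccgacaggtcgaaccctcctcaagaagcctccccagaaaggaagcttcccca
Ggps1: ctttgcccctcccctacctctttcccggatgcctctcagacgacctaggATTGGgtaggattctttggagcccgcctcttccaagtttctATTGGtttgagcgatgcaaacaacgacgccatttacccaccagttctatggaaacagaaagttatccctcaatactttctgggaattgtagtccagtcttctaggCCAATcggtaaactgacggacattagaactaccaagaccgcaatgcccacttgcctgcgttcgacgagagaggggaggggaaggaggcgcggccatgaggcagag

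The CCAAT box was found 4 times in the Hmgcs1 promoter, 5 times in Mvk, 2 times each in Mvd and Idi1 and 3 times in Ggps1. At least 1 match was found in 37.4% of all 32851 RefSeq promoters of the same length, and 2 or more in 11.7%. Of the other promoters searched, Acat2 had 0 matches, and Pmvk had 1 in one of its promoters and 0 in the other. The sterol element core was found in the Hmgcs1 promoter alone of the 8 searched for 7 genes, and in 1.24% of all promoters. The match TCACCCCAC begins at position -137 from the start. The GC box was found 3 times in Hmgcs1, 2 times in Mvk, once each in Mvd, Idi1 and Acat2 and not in Ggps1 or either Pmvk promoter, against 35.7% of all promoters with at least 1 match. None of the 3 motifs overlapped another in these sequences. A match is a description of letters in this window and does not show that a protein binds.

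The first enzymes build HMG-CoA. Acat2 encodes the cytosolic thiolase that joins acetyl-CoA units (ENSMUSG00000023832.14, GRCm38 chromosome 17, 12942890 to 12960747, minus strand). It had 75.4, 52.3 and 76.9 CPM in KO 1, 2 and 3 and 100.4, 100.4 and 88.2 CPM in WT 1, 2 and 3. The groups did not overlap, but the difference was the smallest among the 8 lower genes. Its log2 fold change was -0.50 ± 0.178 (SE, adjusted p = 0.141). Acat2 shares 97.7% of 1477 aligned transcript bases with its neighbour Acat3, and reads that fit both were divided between them by estimation. Acat3 had 435, 367 and 438 CPM in KO and 323, 371 and 358 CPM in WT, with overlapping groups and a change of 0.24 ± 0.161 on the log2 scale. When the counts of both genes were added, the log2 fold change was 0.11 (adjusted p = 0.712). Acat3 had the higher level in every library, so this sum mostly reflects Acat3. Acat2 also shares 98.7% of 445 aligned bases with Tcp1, which was not part of the sum. Tcp1 had 99.5, 125 and 125 CPM in KO 1, 2 and 3 and 124, 110 and 111 CPM in WT 1, 2 and 3. Whether the direction of Acat2 rests on how the shared reads were divided was not tested.

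Hmgcs1 encodes the cytosolic synthase that makes HMG-CoA (ENSMUSG00000093930.2, chromosome 13, 119690379 to 119708260, plus strand). Per kilobase of annotated exon it had the highest level of the 9 genes in WT. It had 246, 97.3 and 132 CPM in KO 1, 2 and 3 and 655, 667 and 508 CPM in WT 1, 2 and 3. Every KO library was below the lowest WT library by more than the range within either group. The means were 158 ± 77.7 CPM and 609.8 ± 88.7 CPM (SD, n = 3 each), and the log2 fold change was -1.94 ± 0.360 (SE, adjusted p = 0.0431).

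The next enzymes turn mevalonate into isopentenyl diphosphate. Mvk encodes mevalonate kinase, which adds the first phosphate (ENSMUSG00000041939.14, chromosome 5, 114444269 to 114460591, plus strand). Mvk had 13.9, 9.11 and 12.6 CPM in KO 1, 2 and 3 and 26.6, 26.3 and 24.1 CPM in WT 1, 2 and 3. The replicates were close in both groups. The log2 fold change was -1.11 ± 0.174 (SE, adjusted p = 0.0304), the smallest adjusted p-value among the 9 genes. Pmvk encodes phosphomevalonate kinase, which adds the next phosphate (ENSMUSG00000027952.16, chromosome 3, 89454541 to 89469013, plus strand). It had 40.5, 19.6 and 26.7 CPM in KO and 65.6, 59.2 and 50.4 CPM in WT. KO 1 came nearest to the WT libraries, and the change of -1.01 ± 0.267 did not pass the threshold (adjusted p = 0.0788).

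Mvd encodes the decarboxylase that ends this stretch (ENSMUSG00000006517.5, chromosome 8, 122433601 to 122443422, minus strand). It had 7.79, 3.24 and 3.31 CPM in KO 1, 2 and 3 and 24.4, 21.6 and 15.6 CPM in WT 1, 2 and 3. KO 2 and KO 3 were nearly equal and lay at 15.8% and 16.1% of the WT mean, whereas KO 1 was at 37.9%. At -2.10 ± 0.385 on the log2 scale (SE, adjusted p = 0.0429) Mvd had the largest estimated fall of the 9 genes. Its change and those of Hmgcs1 and Fdps lay within a standard error of each other.

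Idi1 encodes the isomerase that converts isopentenyl diphosphate to its reactive isomer (ENSMUSG00000058258.14, chromosome 13, 8885501 to 8892451, plus strand). It had 136, 70.2 and 98.5 CPM in KO 1, 2 and 3 and 332, 325 and 261 CPM in WT 1, 2 and 3. The highest KO library was at 44.4% of the WT mean. The log2 fold change was -1.59 ± 0.264 (SE, adjusted p = 0.0331). Its paralog Idi2 had 0 counts in all 6 libraries.

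The last 3 enzymes work at the branch point. Fdps encodes farnesyl diphosphate synthase, which supplies both the sterol and the other branches (ENSMUSG00000059743.12, chromosome 3, 89093588 to 89101959, minus strand). It had 139, 47.5 and 66.3 CPM in KO 1, 2 and 3 and 285, 290.2 and 284 CPM in WT 1, 2 and 3. The WT libraries were almost equal (SD 3.32 CPM), and the KO libraries varied widely (SD 48.5 CPM). The log2 fold change was -1.76 ± 0.387 (SE), further from 0 than that of Idi1, but the adjusted p-value was 0.0580. Without KO 1 the change was -2.34 with an adjusted p-value of 0.00123.

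Fdft1 encodes squalene synthase, the first enzyme committed to sterols (ENSMUSG00000021273.10, chromosome 14, 63145150 to 63179578, minus strand). It had 89.5, 40.5 and 54.2 CPM in KO 1, 2 and 3 and 155, 151 and 132 CPM in WT 1, 2 and 3. The groups did not overlap, and the change of -1.25 ± 0.289 (SE) did not pass the threshold (adjusted p = 0.0640). Without KO 1 the change was -1.63 (adjusted p = 0.00255). Its exons overlap those of Ctsb on the opposite strand by 774 bases. The counting's use of strand is not stated, so reads there may be exchanged. Ctsb had 467 to 704 CPM in KO and 439.7 to 553 CPM in WT.

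Ggps1 encodes the synthase that extends farnesyl to geranylgeranyl diphosphate, which is attached to small GTPases (ENSMUSG00000021302.10, chromosome 13, 14050659 to 14063488, minus strand). It had 7.27, 12.01 and 10.0 CPM in KO 1, 2 and 3 and 7.98, 8.23 and 9.19 CPM in WT 1, 2 and 3. KO 1 was below all WT libraries and KO 2 and 3 were above them. The log2 fold change was 0.21 ± 0.203 (SE, adjusted p = 0.550). The ratio of Fdps to Ggps1 counts was 19.2, 3.96 and 6.60 in KO and 35.7, 35.2 and 30.9 in WT, with no overlap. This ratio too was chosen after the values were seen. Ggps1 overlaps the first exons of Arid4b on the opposite strand by 257 bases, and Arid4b had 19.5 to 21.4 CPM in KO and 20.5 to 20.9 CPM in WT.

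**Figure D2:**
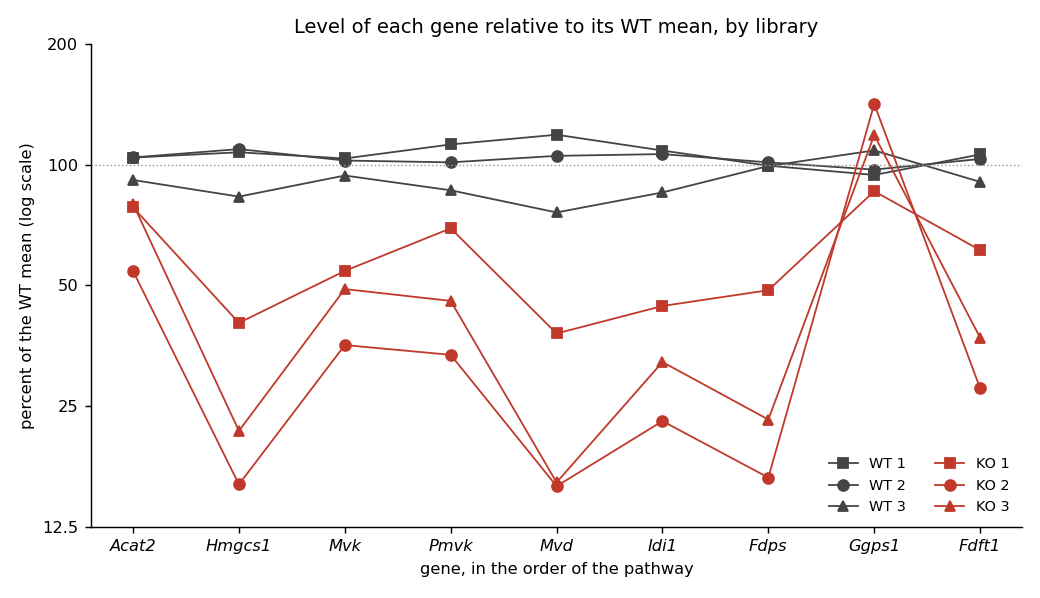
Level of each mevalonate pathway gene in each library as a percentage of its WT mean (log axis), in the order of the pathway, with WT in grey and KO in red. KO 2 is lowest for all genes but Ggps1, where it is highest at 142%.

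The 3 KO libraries kept a similar order along the pathway. KO 2 was the lowest library for each of the 8 lower genes, and KO 1 was the highest for all of them except Acat2, where KO 3 was at 79.8% and KO 1 at 78.3% of the WT mean. The median over the 9 genes was 54.3%, 27.7% and 37.0% of the WT mean in KO 1, 2 and 3 and 106%, 103% and 90.6% in WT 1, 2 and 3. Summed over the 9 genes, the level was 756, 352 and 481 CPM in KO and 1652, 1649 and 1373 CPM in WT. KO 1 also had the most remaining Stk11 of the KO libraries, while KO 3 and not KO 2 had the least. In bulk tissue, fewer cells of a type and less RNA per cell cannot be told apart.

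Exon length here counts every annotated exon of a gene, used in these livers or not, so the order of genes depends on the annotation. Per kilobase of exon, the WT levels were highest for Hmgcs1 at 133 ± 19.3 CPM per kb (SD, n = 3), followed by Idi1 at 87.3 ± 11.2 and Fdps at 68.1 ± 0.789. Acat2, Fdft1 and Pmvk followed at 37.9 ± 2.76, 34.6 ± 2.85 and 34.1 ± 4.45 CPM per kb and did not differ beyond their spread. Mvd and Mvk were at 11.04 ± 2.41 and 9.59 ± 0.504 CPM per kb, again within their spread. Ggps1 was lowest at 1.79 ± 0.135 CPM per kb. In KO, Hmgcs1 remained first at 34.5 ± 16.9 CPM per kb, but it overlapped Idi1 (29.0 ± 9.41) and Acat2 (26.8 ± 5.42). Mvd, at 2.57 ± 1.40 CPM per kb, lay near Ggps1 at 2.07 ± 0.504.

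**Figure D3:**
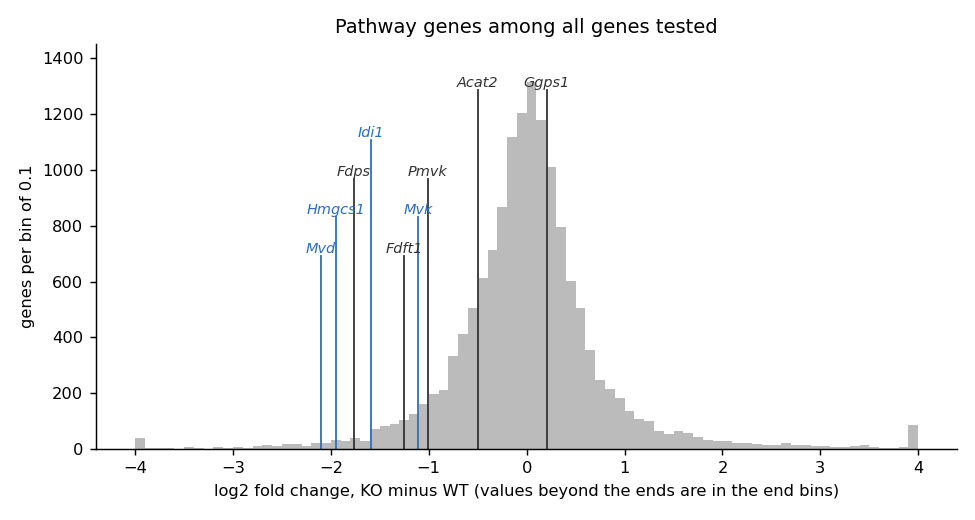
Histogram of the log2 fold change (KO minus WT) of all 14539 genes tested in bins of 0.1, with lines at the 9 mevalonate pathway genes (blue where the fall passed the threshold). All of them except Ggps1 lie left of 0, between -2.10 and -0.50.

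Between the 2 states of the libraries the sizes differed while the direction was shared by the 8 lower genes. Fdps differed by -2.36 on the log2 CPM scale in the libraries with Y-linked counts (2 against 2) and by -1.03 in the pair with Xist counts (1 against 1). For Hmgcs1 these values were -2.36 and -1.41, and for Mvd -2.47 and -1.64. The median over the 9 genes was -1.59 and -0.93, and over all genes tested 0.00 and -0.02. An interaction of group and state was fitted with edgeR over all genes. The state with Xist counts has 1 library per group, so the spread comes from the other 4 libraries alone and the lone libraries are assumed to vary like them. In this fit 2.9% of all genes had an adjusted p-value under 0.05. Of the 9 genes 0 passed, and 3 had an unadjusted p-value under 0.05, namely Fdps (0.00839), Mvd (0.0355) and Fdft1 (0.0421), with adjusted p-values of 0.116, 0.207 and 0.223. Over all genes 20.9% had an unadjusted interaction p-value under 0.05. Ggps1 differed by 0.33 and -0.13, and its interaction had an adjusted p-value of 0.363. The pair with Xist counts is also the pair of KO 1 and WT 1, so the state and these libraries cannot be told apart.

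**Figure D4:**
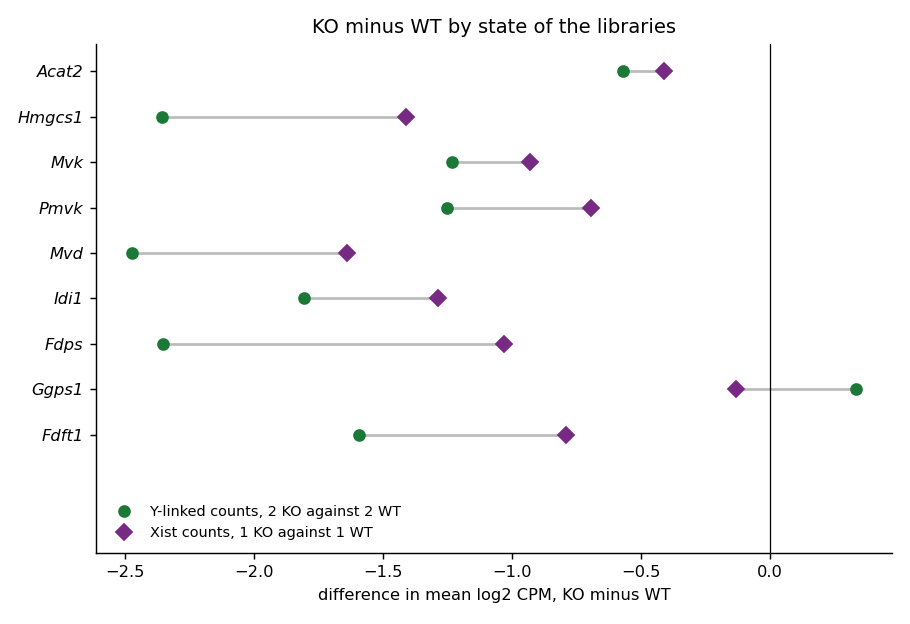
Difference in mean log2 CPM (KO minus WT) for each mevalonate pathway gene in the 4 libraries with Y-linked counts (green circles) and in the pair with Xist counts (purple diamonds). The circle lies further from 0 than the diamond for all 9 genes, as for Fdps at -2.36 and -1.03.

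The enzymes after squalene form the next stretch of the route, and most of them were lower too. Of 12 late genes, 10 were lower in every KO library than in every WT library, against 15.5% of all genes tested. The test called 5 of the 12 as lower (1.22% of all genes), and their median log2 fold change was -1.31 over the 12. Cyp51, the lanosterol demethylase, had 70.1, 25.2 and 36.1 CPM in KO and 247, 249.6 and 221 CPM in WT (-2.45 ± 0.374, SE, adjusted p = 0.0285). Msmo1, which removes methyl groups from the sterol ring, fell by 2.18 on the log2 scale (adjusted p = 0.0157). Sqle, the squalene epoxidase that takes up the product of Fdft1, fell by 1.73 (adjusted p = 0.0226), and Dhcr7, which acts at the end of the route, by 1.22 (adjusted p = 0.00911). Hsd17b7 was the fifth gene called. Ebp, an isomerase of the sterol ring named after its values were seen, overlapped between the groups at 193 ± 43.8 against 188 ± 5.50 CPM (SD, n = 3 each). Without KO 1 there were 9 calls among the 12, all lower (14.2% of all genes). Without KO 2 or WT 1 there were 2, in fits that called 14 of 14885 and 110 of 14935 genes as lower. Without KO 3, WT 2 or WT 3 there were 0. Those fits called 4 of 15004, 1 of 14980 and 3 of 15027 genes as lower. The late genes were part of an earlier list on these data, so their direction is not independent support.

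Genes that control the pathway were near the shares over all genes in their number of calls. Among 10 genes for SREBP processing and LDL uptake 0 passed the threshold, where 3.37% of all genes did. Without overlap 5 were lower and 2 higher, against 15.5% and 16.9% of all genes, and the median log2 fold change was -0.42. Srebf2, which encodes SREBP-2, had 48.3, 40.6 and 49.3 CPM in KO and 84.2, 61.6 and 61.3 CPM in WT, with -0.58 ± 0.168 (SE, adjusted p = 0.0939). Scap, which escorts the factor to the Golgi, was at -0.63 ± 0.162 (adjusted p = 0.0756). The retention proteins had opposite signs, with Insig1 at -1.24 ± 0.388 (adjusted p = 0.110) and Insig2 at 1.03 ± 0.273 (adjusted p = 0.0791), Insig2 being at 383 to 537 CPM in KO and 153 to 276 CPM in WT. Srebf1 had 187, 86.6 and 169 CPM in KO and 232, 132 and 139.8 CPM in WT, with overlapping groups. Without KO 1 there were 5 calls among the 10, 3 lower and 2 higher, in a fit that called 30.2% of all genes, 14.2% as lower and 16% as higher. Srebf1 was at -0.19 over all libraries, and its sign turned without KO 2 (0.09) or WT 1 (0.11).

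**Figure D5:**
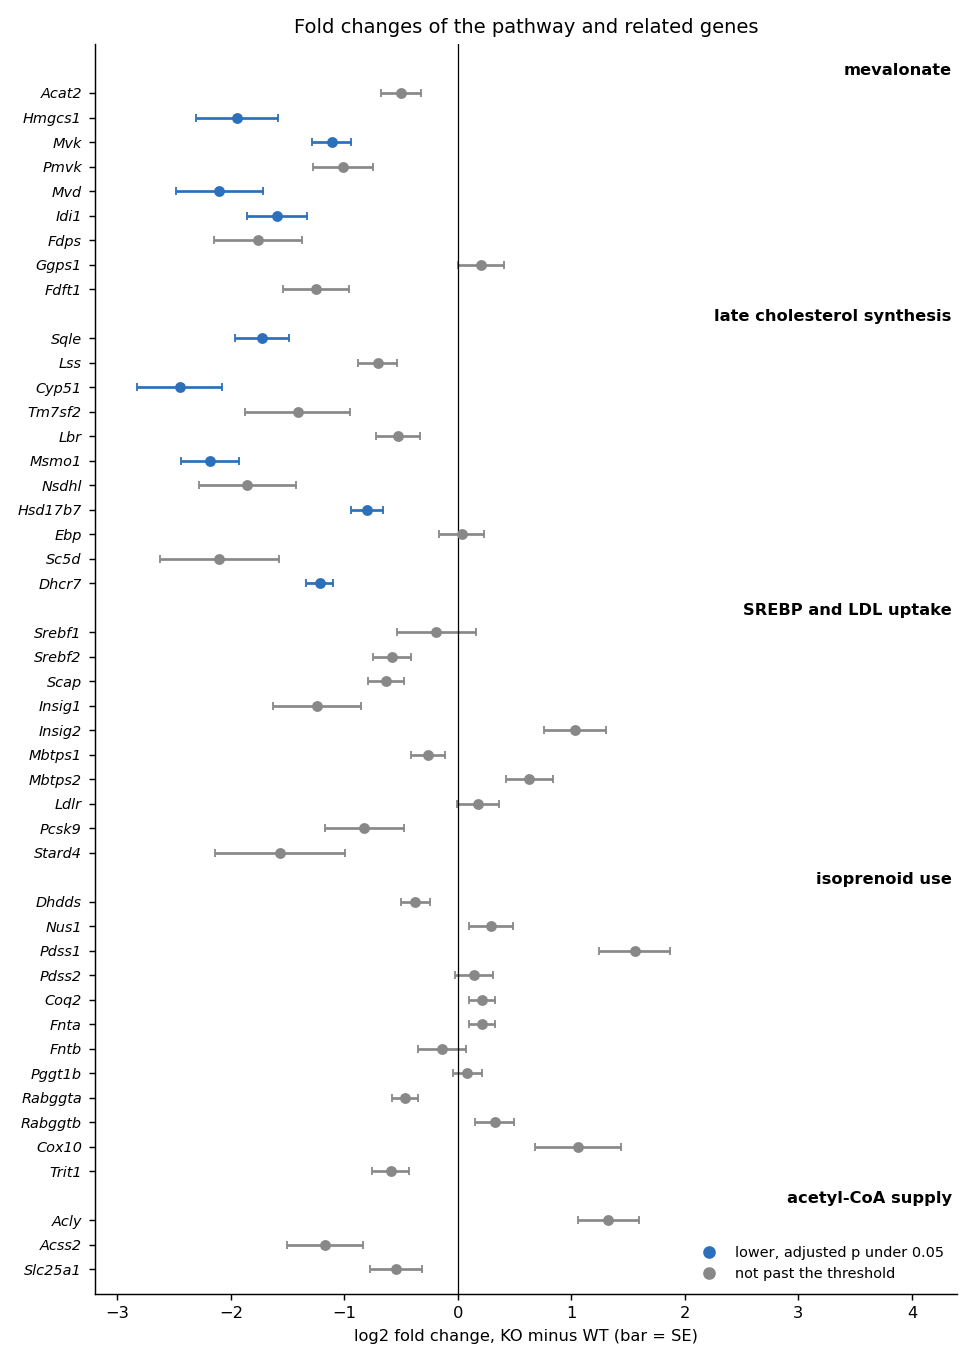
Log2 fold change (KO minus WT, bars are SE) of the mevalonate genes and of genes of 4 related lists, in blue where lower with an adjusted p-value under 0.05. The blue points are 4 mevalonate and 5 late genes, and no gene drawn from the other lists is past the threshold.

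Enzymes that use isoprenoids for products other than sterols were close to all genes in their counts. Of 12 such genes 0 passed the threshold (3.37% of all genes), and without overlap 3 were lower (15.5%) and 2 higher (16.9%). The median log2 fold change was 0.18. Pdss1, a subunit of the synthase of the ubiquinone side chain, had 3.33, 7.27 and 6.62 CPM in KO and 2.03, 1.85 and 1.97 CPM in WT (1.56 ± 0.315, SE, adjusted p = 0.0505). Rabggta, a subunit of the transferase that geranylgeranylates Rab proteins, was at -0.47 ± 0.114 (adjusted p = 0.0704). Trit1, which modifies tRNA, was at -0.59 (adjusted p = 0.0880), and Dhdds, of dolichol synthesis, at -0.37 (adjusted p = 0.132). Without KO 1 there were 6 calls among the 12, 3 in each direction, where 30.2% of all genes were called.

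Upstream, the 3 genes of cytosolic acetyl-CoA supply were split. Acly, the citrate lyase, had 594, 517 and 968 CPM in KO and 287, 297 and 246 CPM in WT, every KO library being above every WT library (1.33 ± 0.270, SE, adjusted p = 0.0507). Acss2, which makes acetyl-CoA from acetate, had 138, 59.1 and 75.6 CPM in KO and 176, 251 and 188 CPM in WT (-1.17 ± 0.334, adjusted p = 0.0922). Slc25a1, the citrate carrier, was at -0.54 ± 0.229 (adjusted p = 0.191). These differences missed the threshold over all 6 libraries, and all 3 genes were called without KO 1, where 30.2% of all genes were.

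The mitochondrial thiolase gene Acat1, a paralog of Acat2, had a change of -0.26 ± 0.215 on the log2 scale (SE) with overlapping groups and did not pass the threshold (adjusted p = 0.484).

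Position gave a further neighbour. Mmab, which encodes an enzyme of vitamin B12 metabolism, starts 209 bases from Mvk on the opposite strand, so the Mvk promoter printed above covers the space between both starts. Mmab had 22.8, 7.90 and 14.8 CPM in KO and 38.1, 35.6 and 34.9 CPM in WT, with no overlap and a difference of -1.26 ± 0.347 on the log2 scale (SE, adjusted p = 0.0865). The value is close to that of Mvk (-1.11). Mmab was outside the rule for named genes and was chosen for its position after its values were seen.

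The log2 CPM of each of the 9 mevalonate genes was scaled to the same mean and spread over the 6 libraries, and the 9 were averaged. This average includes Ggps1, whose Pearson coefficients with the other 8, on log2 CPM without a prior count, were between -0.798 and -0.623. The genes whose log2 CPM followed it most closely were 1190002N15Rik, Bcar3, Fgfrl1, Arid4a and Cyp51. They were the first 5 of 7496 other genes with a mean of at least 10 CPM, and their Pearson coefficients, given as a description, were between 0.996 and 0.999. The libraries fall into 2 groups, so the coefficients carry the group difference. Of these genes Cyp51 alone belongs to sterol synthesis. 1190002N15Rik (-0.85, adjusted p = 0.0322) and Bcar3 (-0.91, adjusted p = 0.0395) fell past the threshold, and Fgfrl1 (-0.53, adjusted p = 0.0696) and Arid4a (-0.35, adjusted p = 0.118) did not.

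Markers of other cell types were measured beside these results. Of 8 endothelial genes 7 were lower in every KO library (15.5% of all genes), and 0 passed the threshold (3.37% of all genes). The 8 summed to 92.7 to 153 CPM in KO and 190.2 to 257 CPM in WT. The summed levels of Kupffer (102 to 227 against 141 to 194 CPM), stellate (127 to 248 against 194 to 401 CPM) and bile duct genes (24.95 to 74.9 against 39.6 to 73.1 CPM) overlapped between the groups, and 0 of these marker genes were without counts in all libraries. Log2 fold changes were negative for 5 of 7 Kupffer, 7 of 7 stellate and 3 of 6 bile duct genes. Over all genes tested 7129 of 14539 were negative. The medians were -0.38, -0.47 and -0.0023, and 0 of these genes passed the threshold (3.37% of all genes). The T and B cell genes summed to 4.18 to 9.37 CPM in KO and 6.29 to 9.01 CPM in WT, mostly from Ptprc, which other leukocytes also express. The other 4, Cd3e, Cd3d, Cd79a and Ms4a1, were under 1 CPM in every library with lower means in KO, and the median of the 5 was -1.36 on the log2 scale. Genes of hepatocytes near the portal vein summed to 15529 to 29146 CPM in KO against 7756 to 8591 CPM in WT, and 3 of 6 were called as higher (2.15% of all genes). Most of the sum came from Ass1 and Cps1, and Cyp2f2 of the same list was lower in every KO library, at 314 against 1056 CPM. Genes of hepatocytes near the central vein summed to 811 to 3045 against 7359 to 8525 CPM, and 1 of 6 was called as lower (1.22% of all genes). The part of these differences in the lower mevalonate genes was not tested.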

How the data were processed

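Poly(A) RNA of 6 mouse livers was sequenced. Per the submitters' processing notes, bcl2fastq 2.17, cutadapt 1.18, STAR 2.7.0f and RSEM 1.3.1 were used. The authors deposited 1 table of expected counts, RSEM's estimated counts per gene, in which reads that fit several genes are divided. The notes name the mm9 build, whereas all 55450 versioned gene identifiers were found in GENCODE M21 on GRCm38, from which positions were taken. The use of strand is not given in the sources used here.

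Expected counts were rounded and filtered with filterByExpr (14539 genes kept), scaled by TMM and tested with edgeR 4.0.16 (quasi-likelihood, group as the only term, R 4.3.3), with Benjamini-Hochberg adjustment over all genes. The SE is the log2 fold change over the square root of F. CPM use TMM-scaled library sizes, and log2 CPM a prior count of 2. Groups and replicate numbers came from the titles. Alternatives used limma 3.58.1 and DESeq2 1.42.0. The fit was also run on simulated counts, drawn with the same spread for a gene in every library. That run does not cover a library that differs as KO 1 did, and its outcome is not given here. Transcripts were compared with blastn 2.17.0 (at least 95% identity over 200 nt).

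The members, lists and tests were chosen with earlier results of these data known. Named genes are the 9 members, up to 4 genes per list with the smallest adjusted p-value, Srebf1, Srebf2, Acat3, Stk11, and the 5 genes most like the members. Others were named after their values were seen. Some genes under this rule are not reported here.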

Additional observations from a re-analysis of the deposited data

How the results depend on the processing

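The direction of 8 of the 9 mevalonate genes held in all 16 alternatives. For Acat2 the summed value was 0.11 when the counts of the more abundant Acat3 were added. This held with Acat3 alone and with the look-alike genes of the other members (the latter chosen after seeing the data). Acat2 kept its direction in the other 14 alternatives. Srebf1 lay between -0.40 and 0.11 with 1 replicate left out, turning to 0.09 without KO 2 and to 0.11 without WT 1. The number of mevalonate genes called was 4 with DESeq2 size factors, library size alone or limma voom and 6 without a filter. Those fits called 479, 511 and 432 of 14539 and 771 of 23717 genes. The number was 7 with the DESeq2 test, with the Xist state as a term or in the 4 libraries with Y-linked counts. Those fits called 2290 and 1504 of 14539 and 4847 of 14546 genes. It was 1 (Mvd) with the replicate block, where 105 of 14539 genes were called and 2 in the late list. With 1 replicate left out it was 0 to 7, in fits that called from 6 of 14980 to 4473 of 14833 genes. The titles' numbers give no shared source, and the deviations of same-numbered samples correlated at 0.178, 0.0443 and 0.0679.

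All genes gave 490 calls of 14539 tested in the reported fit and 771 of 23717 without a filter. They gave 2290 of 14539 with DESeq2, 432 of 14539 with limma voom and 1504 of 14539 with the state as a term. In the 4 libraries 4847 of 14546 were called. With 1 replicate left out the calls ran from 6 of 14980 to 4473 of 14833. The share of higher calls was 313 of 490, and 380 of 511 with library size alone, where the 9 mevalonate genes still gave 4 calls. Late genes called numbered 9 of 12 with DESeq2 (2290 of 14539 genes) and 8 in the 4 libraries (4847 of 14546). They numbered 0 to 9 with 1 replicate left out (6 to 4473 over all genes). SREBP and LDL uptake genes called numbered 5 of 10 with DESeq2 (2290 of 14539 genes) and 2 with the state as a term (1504). There were 5 in the 4 libraries (4847 of 14546) and 0 to 5 with 1 replicate left out (6 to 4473). Isoprenoid use had 1 call of 12 without a filter (771 of 23717 genes) and 4 with DESeq2 (2290 of 14539). It had 2 with the state as a term (1504 of 14539) and 6 in the 4 libraries (4847 of 14546). With 1 replicate left out it had 0 to 6 (6 to 4473 over all genes). Acetyl-CoA supply had 1 call of 3 with library size alone (511 of 14539 genes), without a filter (771 of 23717) or with limma voom (432). It had 1 with the state as a term (1504), 2 with DESeq2 (2290) and 3 in the 4 libraries (4847 of 14546). With 1 replicate left out it had 0 to 3 (6 to 4473 over all genes). The list of related enzymes that holds Acat1 and Acat3 had 4 genes tested and 0 called in the reported fit. It had 1 call with DESeq2 (2290 of 14539 genes) or the state as a term (1504). In the 4 libraries it had 2 (4847 of 14546), and 0 to 2 with 1 replicate left out (6 to 4473). The interaction with the Xist state had 421 calls over all genes and 0 of the 9, and without a filter 1607 and 1. The cause of these changes was not tested. A fit with 1 replicate left out also has fewer samples. The lowest count of a mevalonate gene in a library was 156.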

Other observations

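Several mevalonate genes have processed pseudogenes that could share reads with them. Gm13502, a pseudogene with 100% identity to Idi1 over 684 aligned bases, had 4.20, 1.01 and 1.80 CPM in KO 1, 2 and 3 and 8.79, 9.26 and 12.6 CPM in WT 1, 2 and 3 (log2 fold change -2.12 ± 0.499, SE, adjusted p = 0.0652 in edgeR's quasi-likelihood test). Its groups did not overlap, as for Idi1 itself. Gm35570, another Idi1 pseudogene with 97.7% identity over 681 bases, had 1.85, 1.01 and 1.08 CPM in KO and 1.20, 0.521 and 0.406 CPM in WT, with overlapping groups. Gm3571, which has 98.9% identity to Fdps over 1062 bases, had 0.326, 0.144 and 0.233 CPM in KO and 0.572, 0.791 and 0.535 CPM in WT (adjusted p = 0.0970). These genes were chosen for their likeness to the mevalonate genes, and their values are small beside those of Idi1 and Fdps.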
